A study of Homo sapiens with 7 samples.

Results

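The 598 regions described here lay inside genes and carried a pThr4 peak in all 3 lists made with active SCP1 and in none of the 3 lists made with inactive SCP1. To find them, the peaks of the 6 deposited lists on chromosomes 1 to 22 and X were joined wherever they shared at least 1 bp, which gave 41740 merged regions. A region was kept if it was under 10 kb wide and lay wholly inside a RefSeq gene of GRCh38. It was also more than 1 kb from any annotated transcription start site (TSS) and from any gene's transcription end site (TES). The TES was the outer end of the gene, and ends of shorter transcripts inside a gene were not used. Of 22458 regions that met these limits of width and place, the 598 made up 2.66%. Since the presence of peaks chose the members, this share is a description and was not tested. The reverse pattern, all 3 inactive and no active list, was found at 0 gene-body regions. This 0 says little, because the inactive lists were far shorter. They held 612, 234 and 677 gene-body peaks, against 6227, 2699 and 19474 in the active lists. Without the limits of width and place, 1662 merged regions had a peak in every active and no inactive list.

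The lists came from chromatin immunoprecipitation sequencing (ChIP-seq) in HEK293 cells, an established line derived from human embryonic kidney. Nuclear lysate was divided, and portions were incubated in vitro with active SCP1 (SCP1-WT) or with SCP1 D96A, a catalytically inactive form. Precipitation then used antibody 6D7, which recognises RNA polymerase II phosphorylated on threonine 4 of its C-terminal repeat (pThr4). Each group held 3 biological replicates per the labels, and an IgG control was not analysed here. The labels name no other treatment, and both groups shared line, culture and fixation. A removal of phosphate in lysate is not an event in the living cell.

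The largest subunit of RNA polymerase II ends in a long tail of repeated heptads, and the residues of a heptad are phosphorylated and dephosphorylated as the enzyme initiates, elongates and terminates. Phosphorylated serine 5 is best known from early transcription, and pThr4 from the 3′ end of genes, where transcripts are cleaved and polyadenylated. SCP1 is a phosphatase of serine 5. The series asked where pThr4 becomes visible to the antibody once an adjacent phosphate on serine 5 has been taken away.

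A few hosts had the same pattern of peaks at their start as at the member. Of 498 coding hosts with a known strand, 6 (1.205%) also had a peak within 1 kb of the TSS in all 3 active lists and in no inactive list, close to the 1.276% of 17793 other coding genes. The 250 bases before the start of the 3 such hosts with the strongest start peaks are shown here, from RefSeq on GRCh38.p14, read 5′ to 3′ along the gene. Capitals mark each GGGCGG and its reverse complement CCGCCC, the GC box that factors of the Sp1 family can bind. The windows are chr21:36385142-36385391 (CHAF1B), chr16:22297159-22297408 (POLR3E) and chr1:9588661-9588910 (TMEM201), all on the plus strand.
CHAF1B: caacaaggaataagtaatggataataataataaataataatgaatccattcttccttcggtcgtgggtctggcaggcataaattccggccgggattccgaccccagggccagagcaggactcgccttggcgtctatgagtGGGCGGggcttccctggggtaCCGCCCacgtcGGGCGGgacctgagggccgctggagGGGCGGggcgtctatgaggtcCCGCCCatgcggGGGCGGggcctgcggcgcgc
POLR3E: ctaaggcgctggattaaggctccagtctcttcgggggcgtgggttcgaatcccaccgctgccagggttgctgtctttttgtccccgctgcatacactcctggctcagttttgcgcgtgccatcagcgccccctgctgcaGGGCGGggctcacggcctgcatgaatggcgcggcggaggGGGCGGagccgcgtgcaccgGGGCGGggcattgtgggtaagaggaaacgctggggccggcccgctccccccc
TMEM201: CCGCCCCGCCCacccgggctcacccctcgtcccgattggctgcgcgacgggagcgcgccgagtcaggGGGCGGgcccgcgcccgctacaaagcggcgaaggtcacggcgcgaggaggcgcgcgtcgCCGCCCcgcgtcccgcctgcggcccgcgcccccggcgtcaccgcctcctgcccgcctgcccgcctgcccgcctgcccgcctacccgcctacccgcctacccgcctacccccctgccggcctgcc

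CHAF1B, a subunit of the chromatin assembly factor that deposits histones behind replication forks, had 6 GC boxes in this window. With active SCP1 the fold enrichments of its start peaks were 3.84, 5.80 and 4.59 in replicates 1, 2 and 3, and its gene-body member, 13.8 kb from the TSS, had 4.18, 3.32 and 2.84. The start peak was thus the stronger one in replicates 2 and 3 and the weaker one in replicate 1. POLR3E, a subunit of RNA polymerase III, had 3 GC boxes. Its start peaks reached 5.01, 4.88 and 3.84, against 3.38, 3.62 and 3.54 at its higher-ranked member 30.8 kb downstream. TMEM201, a protein of the inner nuclear membrane, had 4 GC boxes and a window of 82.0% G and C. Its start peaks had 3.73, 3.84 and 3.66 and its member 3.64, 3.44 and 3.62, so start and body were close in each list.

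GC boxes were frequent at host promoters in general. A promoter sequence was at hand for 421 of the 499 protein-coding hosts (84.4%), at the gene start used elsewhere for 364 of them and at the nearest other annotated start for the rest. Of the 421, 312 (74.1%) held at least 1 GGGCGG on either strand in the 250 bases before the start, against 8508 of 15391 other protein-coding genes (55.3%) and 55.8% of all 15812. The median G and C content was 68.0% at hosts and 62.0% at other genes. TATAAA, the core of the TATA box, was found on either strand at 3.09% of host promoters and 9.53% of others. These letters are not shown to be bound sites, and the shares are descriptions.

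Members were wider than the other gene-body regions, and most hosts held 1. Their width ran from 362 to 9360 bp, with a median of 2443.5 bp and an interquartile range of 1539 to 3814 bp, against a median of 684 bp for the other gene-body regions. A member joins peaks of at least 3 lists, which the others need not do. Together the members covered 1.73 Mb. Protein-coding genes were hosts to 570 members, lncRNA genes to 23 and transcribed pseudogenes to 5. The 526 hosts comprised 499 protein-coding, 22 lncRNA and 5 pseudogenes. Those 499 were 2.69% of the 18528 protein-coding genes with room for a member. A single member was found in 467 hosts, a pair in 48 and at least 3 in 11. Because 57 members lay inside more than 1 gene, the shortest protein-coding gene was taken as their host. Whether a member lay over an exon or an intron was not determined here.

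Enrichment at the members was modest and close to that of other gene-body peaks of the same list. The deposited fold enrichment is a ratio over a background, and whether a control library supplied that background is not given. Where a list had several peaks in a member the highest was taken. The median over members was 3.45, 3.47 and 3.40 in active replicates 1, 2 and 3, against 3.31, 3.46 and 3.08 at the gene-body peaks outside members. Outside members each peak counted on its own, so taking the highest can raise the members' values. Of the 598 members, 534, 561 and 576 had a single peak in these lists. On the log2 scale the members exceeded the other peaks by 0.056, 0.0055 and 0.14, a mean of 0.068 ± 0.070 (SD, n = 3), so the excess was no larger than its spread between libraries. The median −log10 p-value was 4.56, 4.58 and 4.56, against 4.27, 4.54 and 3.75 elsewhere. In active replicate 3, whose list admitted the weakest peaks, 79.3% of all peaks were at or below the members' median −log10 p-value, but in active replicate 2 only 39.8% were.

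Within a member, the highest of the 3 values divided by the lowest had a median of 1.12 and was under 1.2 at 472 members (78.9%). It exceeded 1.5 at 4. Since every member passed every list's cutoff and values of different members were also confined to a narrow range, with interquartile ranges of 3.24 to 3.67, 3.30 to 3.67 and 3.20 to 3.63 in replicates 1, 2 and 3, this ratio says little of agreement within a member. The largest ratio, 1.61, was at a region of SON, a large protein of nuclear speckles, with fold enrichments of 3.06, 3.59 and 4.93 in replicates 1, 2 and 3. No library dominated, since the highest value came from replicate 1 at 190 members, from replicate 2 at 216 and from replicate 3 at 192. The order of the members was only loosely shared. Spearman's rho of fold enrichment across the 598 members was 0.33 to 0.34 over the 3 pairs of active libraries, a description only, since all members had to pass each list's cutoff.

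Absence from the inactive lists has to be read against their cutoffs. The weakest peak admitted had a −log10 p-value of 4.23, 4.6001 and 4.20 in the inactive lists and of 3.50, 3.79 and 3.08 in the active lists. The members' median −log10 p-value was 4.56, 4.58 and 4.56 in active replicates 1, 2 and 3. These medians were above the cutoffs of inactive replicates 1 and 3 and below that of inactive replicate 2. The lowest −log10 p-value of a member over the active libraries had a median of 4.17 and a range of 3.18 to 9.50. Only 100 members (16.7%) were at or above 4.6001 in all 3 active lists, so most members would not have been admitted in every inactive list at the strength they showed with active SCP1. A missing peak therefore means that none passed that list's cutoff. It does not mean that pThr4 signal was lacking there. When every list was held to a −log10 p-value of 6 or more, 7 regions had the active-only pattern, of which 4 lay among the 598. The number also moved with the lists used, to 953 without active replicate 1 and 2399 without active replicate 2.

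**Figure D1:**
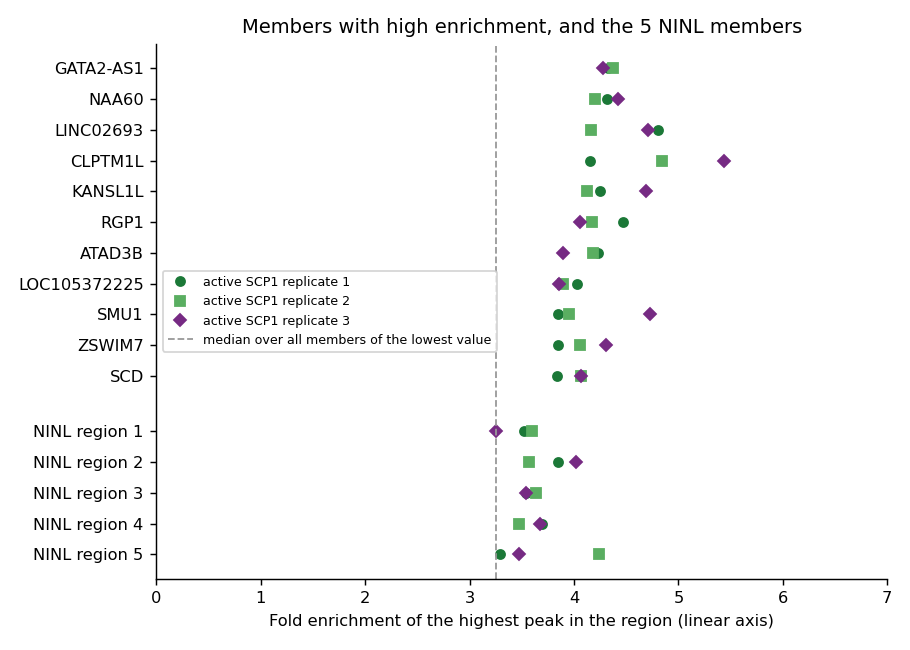
Fold enrichment, on a linear axis from 0, of the strongest peak of each active list in 11 members with a high lowest value and in the 5 members of NINL, with 1 symbol per replicate. The dashed line is the median, 3.25, of the lowest value over all 598 members, and the CLPTM1L member reaches farthest to the right, to 5.44.

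Among single members, NAA60 (chromosome 16, 3457169 to 3458828), an N-terminal acetyltransferase, had fold enrichments of 4.31, 4.20 and 4.42. Its member lay at 33.2% of the way from TSS to TES. CLPTM1L, a membrane protein (chromosome 5, 1328943 to 1330525), had 4.15, 4.84 and 5.44, so replicate 3 was highest. KANSL1L, a paralogue of a subunit of a histone acetyltransferase complex, had 4.25, 4.13 and 4.69 in a member only 378 bp wide that lay 146 kb from its TSS. An inactive list had a peak 5.33 kb from that member. These values were all above the median over members in each library.

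RGP1, which acts with RIC1 to activate the small GTPase Rab6, had 4.47, 4.17 and 4.06 at a member that lay early in the gene, at 18.6% of its length. ATAD3B, an ATPase of mitochondria, had 4.23, 4.18 and 3.90. SMU1, a protein of the spliceosome, had 3.85, 3.95 and 4.73 at 1.04 kb from its TES. ZSWIM7, a factor in homologous recombination, had 3.84, 4.06 and 4.31. SCD, the stearoyl-CoA desaturase that makes monounsaturated fatty acids, had 3.84, 4.06 and 4.06, and the nearest inactive peak was 1.78 kb away. In these members the lowest of the 3 values was at least 3.84, whereas the lowest value over all members ran from 2.46 to 4.41.

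Noncoding hosts were few but prominent at the top of the ranking. GATA2-AS1, an antisense neighbour of the gene of the haematopoietic transcription factor GATA2 (chromosome 3, 128497235 to 128498244), had 4.32, 4.37 and 4.28 with the nearest inactive peak 423 kb away. LINC02693 (chromosome 17, 21529564 to 21533063) had 4.80, 4.16 and 4.71. LOC105372225 on chromosome 18 had 4.02, 3.90 and 3.86, and LOC105371998 on the same chromosome had 3.83, 4.48 and 3.83. PITX1-AS1 had 4.26, 3.88 and 3.71, and LOC124901432 had 3.62, 3.51 and 3.58. These 6 are the highest-ranked of 22 lncRNA hosts, and the nearest inactive peak was over 280 kb away from each. Over all 23 lncRNA members that distance ran from 2.72 to 1450 kb with a median of 287 kb, and it was under 100 kb at 7, against a median of 23.04 kb over the 598 members.

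Some hosts held a series of members. NINL, a centrosomal protein related to ninein, held 5 in a gene of 133 kb (chromosome 20, 25452697 to 25585531, minus strand). From the end of the gene backwards they lay at 94.3%, 81.6%, 78.4%, 67.1% and 63.7% of the way from TSS to TES, so none was in the TSS-proximal part. The first of these, nearest the TES, reached 3.53, 3.60 and 3.25, and the last had 3.29, 4.24 and 3.48. The closest inactive peak to any of the 5 was 160 kb away. SON had 3 members at 34.4%, 63.4% and 75.3% of its length, and the middle one had 4.69, 3.56 and 3.87. UBE3C, a ubiquitin ligase, had 3 at 48.1%, 62.2% and 83.5%. RBM39, a splicing factor, had 3 at 38.6%, 46.1% and 87.3%, and an inactive peak lay 2.15 kb from the last.

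PYGB, the brain form of glycogen phosphorylase, held 3 members at 53.1%, 68.1% and 80.3%. Its weakest member had 3.12, 3.32 and 3.23. PRR14L held 3 spread from 31.8% to 91.7% of the gene. IARS1, the isoleucyl-tRNA synthetase, held 3 close together, from 69.9% to 78.4%. HNRNPC, a protein of nuclear RNA-binding particles, held 3 from 43.9% to 72.5%, with the lowest value of any of them at 3.00 in replicate 3. Members of 1 gene share their transcript and are not independent of each other.

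Along the host gene, members lay toward the 3′ end. Strand was known for 591 members, 314 in plus-strand and 277 in minus-strand hosts. The middle of a member lay at a median of 0.686 of the way from TSS to TES, where 0 is the TSS and 1 the TES (interquartile range 0.484 to 0.837). The successive 25% parts of the host held 6.94%, 19.97%, 34.5% and 38.6% of members, and 432 (73.1%) lay past the midpoint. Bases of the coding hosts where a member could have been found lay past the midpoint in 50.1%. FAF1, a ubiquitin-binding protein, held the earliest member, at 1.501% of a gene of 523 kb and 7.39 kb from the TSS.

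A late place was also seen in other patterns of presence. The 249 gene-body regions with a peak in all 3 active lists and at least 1 inactive list had a median place of 0.665, with 68.0% past the midpoint. The 2182 with 2 active lists and no inactive list were at 0.626. Regions found in a single active library were at 0.591 (2428 in replicate 1), 0.633 (590 in replicate 2) and 0.553 (16081 in replicate 3). The 162 found only in inactive lists were at 0.654, and the 168 with 1 or 2 active and at least 1 inactive list at 0.676. All 22458 together had 57.9% past the midpoint. The medians of several other patterns were thus close to that of the members.

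**Figure D2:**
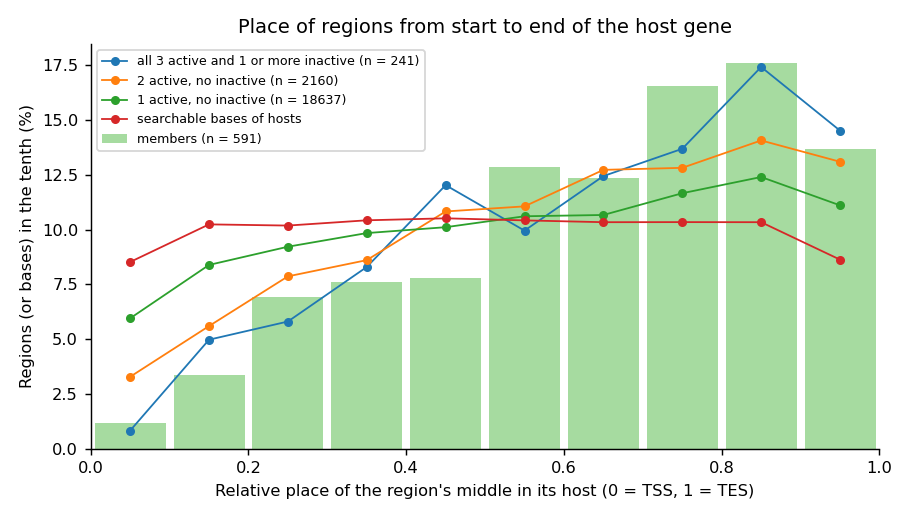
Share of regions, in percent, in each of 10 equal bins along the host gene from TSS (0) to TES (1), with bars for the members and lines for other patterns of presence and for the searchable bases of the hosts. Members rise from 1.18% in the first bin to 17.6% in the bin before the last, and the line of regions with active and inactive peaks runs close to them.

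Measured in bases, members were 24.7 kb from the host TSS and 11.1 kb from the host TES at the median. Within 5 kb of the TES lay 164 members (27.7%), against 14.97% of the other gene-body regions, and within 5 kb of the TSS lay 22 (3.72%), against 8.05%. The relative place shifted with the length of the host. In coding hosts under 20 kb the median place of members was 0.635, in those of 20 to 50 kb 0.639, of 50 to 100 kb 0.722, of 100 to 200 kb 0.797 and of over 200 kb 0.923. Other gene-body regions stayed between 0.559 and 0.587 over the same classes. The class over 200 kb holds only 26 members.

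Hosts were of medium length. Their median was 44.5 kb, from 7.25 kb (TEFM, a mitochondrial transcription elongation factor) to 984 kb (CAMTA1, a transcription activator of the nervous system). The coding hosts had a median of 44.4 kb, against 27.9 kb for all coding genes with room for a member. Counted per region, the median host length was 45.7 kb for members but 68.7 kb for all other gene-body regions. It was 38.8 kb for regions with 3 active and at least 1 inactive list. For regions with 2 active lists and no inactive list it was 52.5 kb. Genes of 20 to 50 kb held 253 members, or 44.4% of those in coding genes, against 26.4% of the other regions. Per 10 Mb of searchable bases (bases inside genes and over 1 kb from any gene end) there were 12.6 members in genes under 20 kb, 18.6 at 20 to 50 kb, 7.19 at 50 to 100 kb, 3.49 at 100 to 200 kb and 0.457 above. The density of other gene-body regions also fell with length, at 397, 386, 253, 170 and 60.8 per 10 Mb in the same classes. The member of CAMTA1 lay at 94.5% of the gene, 53.5 kb before the TES, with fold enrichments of 3.38, 3.34 and 3.09. That of TEFM had 3.06, 3.55 and 2.92. LOC124901395, a noncoding host of 7.81 kb, had 3.32, 3.61 and 3.73.

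**Figure D3:**
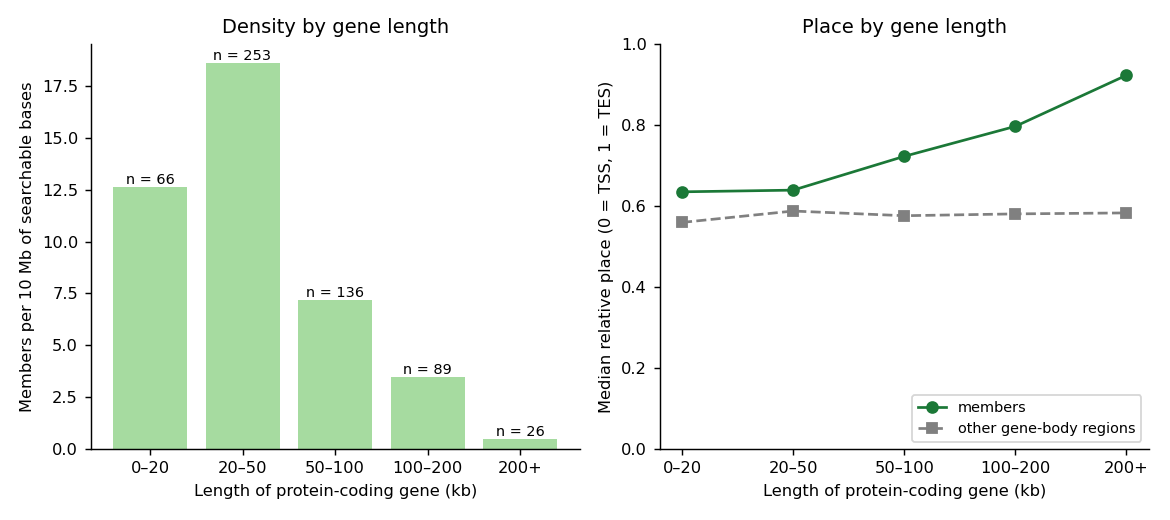
Left, members per 10 Mb of searchable bases by length class of the protein-coding gene in kb, with the number of members above each bar. The density of other gene-body regions, which also fell with length, is not drawn. Right, median relative place of members (circles) and of other gene-body regions (squares) in the same classes, where the members move from 0.635 to 0.923 and the others stay under 0.60.

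Length and place were also compared between the groups over whole lists, members and other regions together. By the rule, 667, 638 and 620 peaks of active replicates 1, 2 and 3 lay in members, and 0 of each inactive list. The comparison is thus not independent of the choice of members, and it was not repeated without them. All gene-body peaks of each list by the same limits were taken, and each library gave 1 median. Host length was 50.8, 42.0 and 67.3 kb in active replicates 1, 2 and 3 and 33.2, 28.9 and 32.1 kb in the inactive ones. Among the active lists, of 12625, 6680 and 36892 peaks, the longer the list the longer was the median host. The groups did not overlap, and the difference of mean log2 medians was 0.74 (15.68 ± 0.34 against 14.93 ± 0.10, SD, n = 3 each), a 1.67-fold longer host with active SCP1 (two-sided exact permutation test, p = 0.1, the smallest that 3 against 3 libraries can give). Among the 1163 strongest peaks of each list the difference was smaller, at 0.42 (1.33-fold), in the same direction. That setting left 130, 159 and 110 gene-body peaks in active replicates 1, 2 and 3. It left 184, 234 and 176 in the inactive ones, so the inactive lists then held more of them.

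Relative place over whole lists was 0.637, 0.708 and 0.573 in active replicates 1, 2 and 3. In the inactive replicates it was 0.740, 0.759 and 0.728. The groups again did not overlap, with a difference of -0.103 (two-sided exact permutation test, p = 0.1). In the lists as deposited, gene-body peaks with active SCP1 lay earlier in their hosts, and those of active replicate 3 earliest. The separation was lost when peaks were admitted more evenly. The difference was -0.028 with lists of equal peak number (p = 0.2), -0.059 with −log10 q-values of 2 or more (p = 0.4) and -0.028 with −log10 p-values of 6 or more (p = 0.4; two-sided exact permutation tests). Labels inside the peak names set replicate 3 of both groups apart from replicates 1 and 2, and what they mark is not stated. Within replicates 1 and 2 the differences were 0.58 for log2 host length and -0.077 for place.

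Many hosts carried signal at their ends, mostly at the 3′ end. Of 498 coding hosts with a known strand, 236 (47.4%) had a peak within 1 kb of the TES in all 3 active lists, but only 27 (5.42%) had one within 1 kb of the TSS. Among 17793 other coding genes with room for a member the shares were 11.99% and 3.60%. At the TES, 36.1% of hosts had a peak in at least 1 inactive list, against 9.81% of other genes. The contrast was as large within 1 length class. In genes of 20 to 50 kb, 55.2% of 223 hosts and 13.6% of 4477 other genes had a TES peak in all 3 active lists. No start peak in any active list was found at 371 hosts (74.5%) and at 80.3% of the other genes. These windows sat at the outer ends of the gene, and other annotated starts inside it were not read. Host genes differ from others in whatever brought a gene-body peak above the cutoff, so these shares are descriptions.

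**Figure D4:**
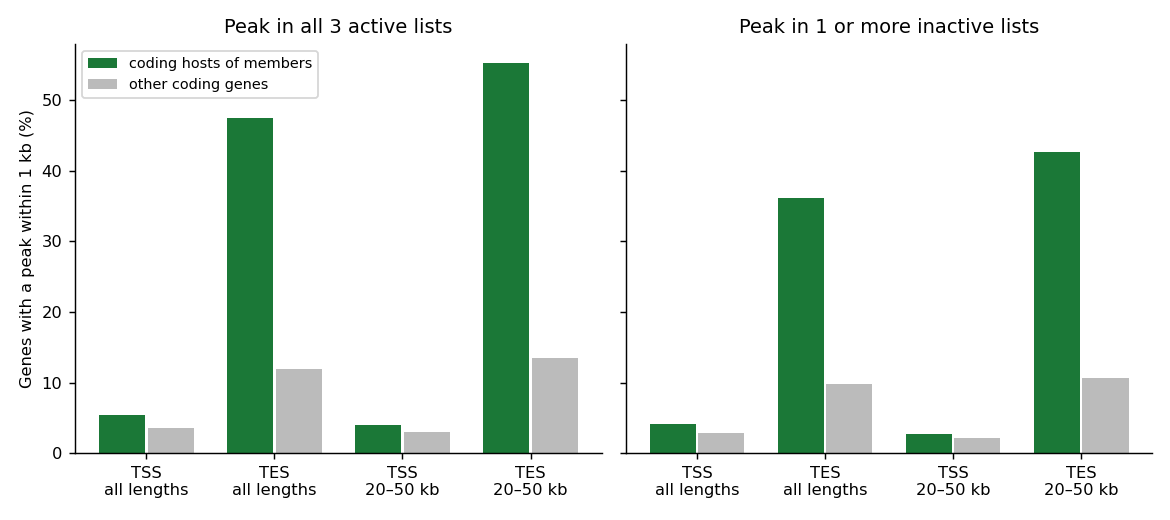
Percent of protein-coding genes with a peak within 1 kb of the TSS or the TES, for hosts of members (green) and other genes with room for one (grey), over all lengths and for genes of 20 to 50 kb. Left, a peak in all 3 active lists; right, a peak in at least 1 inactive list; hosts stand far above other genes at the TES and slightly above at the TSS.

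Although no inactive list had a peak in a member, inactive peaks were often nearby. The closest was at a median of 23.04 kb, and it lay within 5 kb of 127 members (21.2%), against 5.89% of 21281 other gene-body regions without an inactive peak, whose median was 109 kb. It was over 100 kb away from 165 members. An inactive peak in or within 1 kb of the host gene was found for 260 of the 526 hosts (49.4%), and for 15.4% of other coding genes. The remaining 266 hosts had no inactive peak at all.

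Genes of the transcription machinery were examined as lists, chosen with earlier results of these data known. Of 26 CTD kinases and phosphatases with room for a member, 1 was a host. This was CDK12, a kinase of serine 2, with fold enrichments of 3.91, 4.07 and 3.52 at 72.8% of the gene and an inactive peak 3.08 kb away. Of 31 elongation and pausing factors 3 were hosts (9.68%). NELFB, a subunit of the negative elongation factor that holds paused polymerase, had 3.80, 3.87 and 3.59. MLLT1, a subunit of the super elongation complex, had 3.35, 3.58 and 3.30. SUPT6H, a histone chaperone that travels with polymerase, had 3.25, 3.50 and 4.85, highest in replicate 3. Of 29 cleavage, polyadenylation and termination factors 2 were hosts (6.90%). CPSF7, a subunit of cleavage factor I, had 3.81, 3.99 and 3.78, with no inactive peak within 386 kb. WDR33, which recognises the polyadenylation signal, had 3.80, 3.87 and 3.70. All of these stand beside the 2.69% of coding genes that were hosts.

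Splicing factors and chromatin regulators held more. Of 60 splicing factors 10 were hosts (16.7%), with 15 members. HNRNPM, an RNA-binding splicing regulator, had 2, at 58.8% and 93.8% of the gene, the latter with 3.62, 3.59 and 3.57. SRRM1, a coactivator of splicing, had 3.50, 3.93 and 3.72. PTBP2, the neuronal polypyrimidine tract-binding protein, had 3.38, 3.49 and 3.59. Of 84 chromatin regulators 18 were hosts (21.4%), with 21 members. HDAC2, a histone deacetylase, ranked first by its lowest value, with 3.84, 4.63 and 4.07. BRD3, a bromodomain protein that reads acetylated histones, had 3.77, 3.45 and 3.70. KMT2D, a methyltransferase of histone H3 at enhancers, had 3.36, 3.44 and 3.60. DNMT1, the maintenance DNA methyltransferase, had 2 members, the stronger with 3.57, 3.84 and 3.36. The median length of genes with room was 21.1 kb in the splicing list and 84.1 kb in the chromatin list. Of all coding genes with room 2.69% were hosts, with 4.71% at 20 to 50 kb and 4.02% at 50 to 100 kb.

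Other lists were near the share of all coding genes or held none. Of 542 genes of C2H2 zinc finger proteins, a large family of DNA-binding factors, 17 were hosts (3.14%, against 2.69% of all coding genes). ZNF263 had 3.95, 3.65 and 4.02, ZNF107 had 4.04, 3.66 and 3.40, and ZNF33B had 3.47, 3.39 and 3.70. ZNF251 had 3.43, 3.88 and 3.43. None of 44 long neuronal genes, with 59.3 Mb of searchable bases, was a host, and of all coding genes over 200 kb only 1.65% were. None of 62 genes of cytosolic ribosomal proteins was a host either, but these are short and offered only 0.255 Mb. HEK293 expression of these genes was not measured in this series.

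Members were unevenly spread over chromosomes. Chromosome 19 held 84 (14.05%), or 26.8 per 10 Mb of searchable bases, against 3.89 over all chromosomes. Chromosome 22 had 19.1, chromosome 21 had 14.9, chromosome 17 had 11.2 and chromosome 16 had 9.87 per 10 Mb. At the other end, chromosome 13 had 0.659 with 3 members and chromosome 4 had 0.430 with 4. Gene-body regions of every pattern were also dense on chromosome 19, at 602 per 10 Mb, and members were 4.45% of them, against 2.66% genome-wide. On chromosomes 22, 21, 17 and 16 members were 3.24%, 4.29%, 2.58% and 3.42% of these regions. Chromosome 17, with 435 such regions per 10 Mb, was thus near the genome-wide share. On chromosomes 13 and 4 members were 1.23% and 1.17%. Chromosome 19 is known for its density of genes and of G and C.

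**Figure D5:**
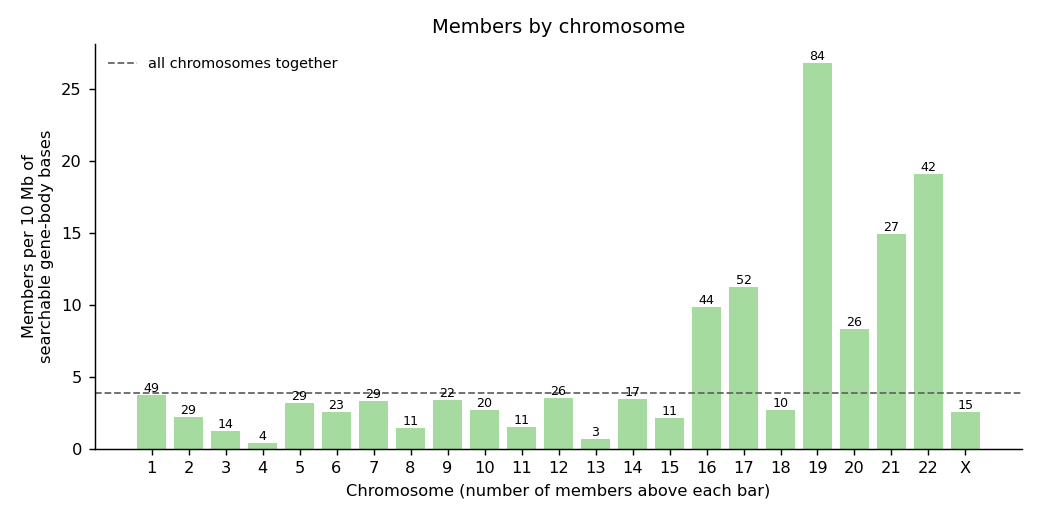
Members per 10 Mb of searchable gene-body bases on each chromosome, with the number of members above each bar and a dashed line at 3.89 for all chromosomes together. Chromosomes 19, 22 and 21 stand highest, and chromosomes 4 and 13 lowest.

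Recurrence was read in libraries that took no part in the choice. Regions were chosen on the same pattern in 4 lists, leaving out both lists of 1 replicate number, and were then looked up in the lists left out. Without replicate 1, 1029 regions were chosen, and 68.3% of them met a peak in active replicate 1 and 7.39% in inactive replicate 1. The background over all gene-body regions of the 4 lists was 15.1% and 1.32%. Without replicate 2, 2413 were chosen, with 25.7% found in active and 0.580% in inactive replicate 2 (background 6.12% and 0.388%). Without replicate 3, 893 were chosen, with 91.4% found in active and 11.3% in inactive replicate 3 (background 56.8% and 4.43%). The share found was higher in the active list in 3 of 3 replicates, by 55.4 ± 27.9 percentage points (SD, n = 3). The active lists are longer than the inactive ones, and the background differed in the same direction. Chosen regions joined peaks of both remaining active lists, which background regions need not do, and any overlap counted as found. The part of region width in these shares was not tested. With lists of equal peak number the difference was 17.2 points, on 6 to 12 chosen regions a reading. Active replicate 2 had the shortest active list, with 6680 peaks against 12625 and 36892, and the lowest share. The chosen regions were also found in the held-out inactive list more often than the background in each replicate. The 3 readings share libraries, so no test was made.

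The limits of the rule cut through a continuous range. Just under 10 kb lay the members of PEX26, a peroxisomal import factor, at 9360 bp, and of ATP13A1, a transporter of the endoplasmic reticulum, at 9202 bp. Just over it lay regions of AP3D1 at 10103 bp and FOXK1 at 10353 bp, 2 of 12 regions left out for width alone. Just over 1 kb from a gene end lay the members of RAB3GAP1, at 1013 bp, and LOC124901395, at 1024 bp, and just inside that distance lay regions of IAH1 at 999 bp and PHF13 at 997 bp. Of 908 active-only regions under the width limit inside genes, 310 were left out for lying that close to an end.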

How the data were processed

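The authors deposited 1 list of broad peaks per library, in the layout of the MACS caller, on hg38. The submitters' processing notes name cutadapt 4.6, FastQC and Bowtie2 2.5.2, and the caller's settings and control are not given in the sources used here. The deposited columns are a score, a fold enrichment (a ratio over a background of unstated source), a −log10 p-value and a −log10 q-value. The score was not used. No read counts are in these lists, so depth is unknown and no counting interval could be given. Lists held 6700 to 36988 peaks with active SCP1 and 1171 to 2709 with inactive SCP1 on all sequences.

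Peaks were merged at 1 bp with Python 3.11.15, numpy 2.4.6 and pandas 2.3.3. Gene ends came from 59098 RefSeq genes of GRCh38.p14 and 34961 promoter starts. Strand came from the RefSeq promoters or, for 83 hosts, by name from GENCODE. Searchable bases were sampled every 100 bp. Groups were compared by two-sided exact permutation over the 20 assignments of libraries. Alternatives were a −log10 q-value of at least 2, equal peak number (1163), a −log10 p-value of at least 6, other merging, coverage, width and window limits, leaving out each list, and, chosen after seeing the data, gene ends without inner starts, replicates 1 and 2 alone, and recurrence with the peak alternatives. The code was tested on simulated data. Members and gene lists were chosen with earlier results of these data known. Named genes were hosts of the 12 members with the highest lowest fold enrichment (1 is not reported here), the 8 with most members (ties by enrichment), up to 4 per list, the 2 longest and 2 shortest, up to 6 noncoding hosts and those beside each limit. The hosts with start peaks, and the earliest member, were chosen after their values were seen. The methods of the accompanying study describe other libraries and were not used.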

Additional observations from a re-analysis of the deposited data

Results flagged for a closer look

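Outside the chromosomes compared, the 6 lists held 178 peaks on other contigs, which merged to 115 regions. Of these, 5 had a peak in all 3 active lists and in no inactive list, and 0 had the reverse pattern. They were not assigned to genes. Their fold enrichments in active replicates 1, 2 and 3 were 3.66, 5.89 and 3.96 and 3.43, 3.89 and 3.48 at 2 regions of the contig GL000194.1. They were 3.72, 4.35 and 4.44 on GL000218.1, 4.11, 3.37 and 4.85 on GL000220.1 and 3.54, 3.58 and 3.25 on KI270442.1. Sequence on such contigs can have near-identical copies elsewhere in the genome, and the part of this in the values was not tested.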

How the results depend on the processing

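The number of members depended most on which peaks were admitted. Peaks with −log10 q-values of 2 or more gave 93 regions (52 overlapping the 598), lists of equal peak number gave 3 (all 3 overlapping), peaks with −log10 p-values of 6 or more gave 7 (4 overlapping), and a limit that a list cover at least 50% of a region gave 128 (85 overlapping). Leaving out 1 list gave 604 to 2399, with 953 without active replicate 1 and 2399 without active replicate 2. Fewer lists make the pattern easier to meet. The remaining alternatives gave 514 to 893. The median place of 0.686 became 0.565 with equal peak number, 0.610 at the common p cutoff and 0.757 with the coverage limit, and 0.637 to 0.705 without 1 list. The median log2 host length of 15.48 became 15.88 at the common p cutoff and 15.34 to 15.62 without 1 list. With equal peak number and the p cutoff these medians rest on 3 and 7 regions. The held-out difference of 55.4 percentage points became 25.1 at the common p cutoff and 17.2 with equal peak number. The causes of these shifts were not tested beyond the number of regions and lists left.

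Both group differences kept their direction under all 13 alternatives each, from 0.42 to 0.74 (0.56 to 0.90 without 1 library) for log2 host length and from -0.108 to -0.028 (-0.138 to -0.070 without 1 library) for place. For place the groups overlapped in 3 of them, with exact permutation p of 0.4, 0.2 and 0.4 for the q, equal number and p settings. Same-numbered libraries did not deviate together over gene-body regions (correlations of 0.023, -0.099 and -0.047). These values cannot show whether same-numbered libraries shared a divided lysate. The main tests did not pair the libraries. With the replicate block the differences stayed 0.74 and -0.103, with a two-sided exact sign-flip p of 0.25, the smallest that 3 pairs can give. The mean log2 excess of fold enrichment was 0.031 to 0.0998 without 1 active library. Unknown depth, list-specific cutoffs and missing exon annotation limit what absence of a peak and place in a gene can show.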
